A study of Mus musculus with 12 samples.

Results

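Lipolysis was described here through 8 genes: the lipases Pnpla2, Lipe and Mgll, the activator Abhd5, the inhibitor G0s2, the lipid droplet enzyme Pnpla3, the receptor Adrb3 and the phosphodiesterase Pde3b. They were taken by gene symbol, and all 8 were found, each as 1 of the 22206 probe sets of a mouse Clariom S array. The cells were 3T3-L1, a mouse preadipocyte line that accumulates fat in culture, on 12 arrays in 6 groups of 2. A control went without compound, and the other groups received squalene (SQ) or an ethylene glycol derivative of it, called mono-SQ, di-SQ, tri-SQ or tetra-SQ. The dose was 5 µM and the exposure 14 days for all 5 compounds. The controls carry the labels of no treatment and no induction for the same 14 days, while the protocol gives every group a hormone mix of IBMX, dexamethasone and insulin, with or without compound. IBMX is itself a phosphodiesterase inhibitor, and insulin a hormone that restrains lipolysis. Whether a group's 2 arrays stem from separate cultures is not labelled, so the p values below measure a spread that may be technical.

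Lipolysis empties the fat droplet in steps. Pnpla2 (also called ATGL) takes the initial fatty acid off triglyceride, Lipe (hormone-sensitive lipase) acts mainly on the resulting diglyceride, and Mgll frees the last fatty acid from monoglyceride. Abhd5 (CGI-58) activates Pnpla2 and G0s2 inhibits it. Catecholamines acting on Adrb3 raise cAMP and start the cascade in rodent fat cells, and Pde3b breaks cAMP down on a signal from insulin. Pnpla3, a relative of Pnpla2, sits on droplets, and in fat cells its transcript is known to follow feeding and insulin. In GRCm38 coordinates, RefSeq places Pnpla2 on chromosome 7 (141455188 to 141460743), Lipe on chromosome 7 (25379527 to 25398486), Pde3b on chromosome 7 (114415222 to 114537938) and Mgll on chromosome 6 (88724412 to 88828360). Abhd5 lies on chromosome 9 (122351616 to 122381524), G0s2 on chromosome 1 (193272160 to 193273188), Pnpla3 on chromosome 15 (84167776 to 84189521) and Adrb3 on chromosome 8 (27225776 to 27230845). Each probe set reads the whole gene's transcripts, so exons and UTRs are not told apart.

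RefSeq promoter windows (GRCm38.p6, 250 bases before to 50 after a start site) were matched for 6 of the 8 genes, in 8 windows. The 250 bases before the start are shown for Pnpla2, Lipe and G0s2, whose signals shifted together and far between the arrays below, and for Abhd5, whose signal shifted least. They lie at chr7:141454938-141455187 (plus strand) for Pnpla2, at chr7:25390113-25390362 and chr7:25395988-25396237 (minus strand) for the 2 start sites of Lipe, at chr1:193273189-193273438 (minus strand) for G0s2 and at chr9:122351366-122351615 (plus strand) for Abhd5. Sequences run 5′ to 3′ on the gene's strand, and capitals mark any match to the motifs searched.
Pnpla2: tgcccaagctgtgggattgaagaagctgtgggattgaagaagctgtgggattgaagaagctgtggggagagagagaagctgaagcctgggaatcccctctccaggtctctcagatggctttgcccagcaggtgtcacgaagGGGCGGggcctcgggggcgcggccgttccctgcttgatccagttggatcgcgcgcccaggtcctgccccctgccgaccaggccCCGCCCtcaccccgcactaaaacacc
Lipe, lower coordinate: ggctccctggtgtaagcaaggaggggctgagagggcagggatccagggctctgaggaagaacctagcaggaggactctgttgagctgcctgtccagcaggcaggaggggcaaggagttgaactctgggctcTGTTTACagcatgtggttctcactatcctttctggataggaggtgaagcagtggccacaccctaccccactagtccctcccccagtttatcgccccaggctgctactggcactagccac
Lipe, higher coordinate: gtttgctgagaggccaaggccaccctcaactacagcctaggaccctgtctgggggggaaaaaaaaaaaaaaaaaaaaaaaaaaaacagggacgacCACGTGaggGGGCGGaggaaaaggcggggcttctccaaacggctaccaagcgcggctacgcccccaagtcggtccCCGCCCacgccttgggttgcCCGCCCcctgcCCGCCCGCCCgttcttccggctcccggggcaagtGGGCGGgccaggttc
G0s2: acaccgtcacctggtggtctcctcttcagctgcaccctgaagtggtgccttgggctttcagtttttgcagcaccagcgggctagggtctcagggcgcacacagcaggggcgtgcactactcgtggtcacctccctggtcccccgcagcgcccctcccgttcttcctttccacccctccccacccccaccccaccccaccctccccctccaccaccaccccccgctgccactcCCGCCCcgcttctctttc
Abhd5: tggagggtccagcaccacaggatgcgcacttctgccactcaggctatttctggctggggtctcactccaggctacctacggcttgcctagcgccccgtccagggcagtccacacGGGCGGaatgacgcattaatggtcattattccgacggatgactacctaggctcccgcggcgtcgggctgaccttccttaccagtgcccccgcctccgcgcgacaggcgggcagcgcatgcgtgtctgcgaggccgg
The motifs, read on both strands, were the nuclear receptor direct repeat with 1 base of spacing, the C/EBP motif TTGCNNAA, the forkhead motif GTAAACA, the cAMP response element TGACGTCA, the E-box CACGTG, the TATA box TATAAA and the GC box GGGCGG. The GC box was in 7 of the 8 windows, against 35.7% of all 32851 windows, and the Pnpla2, G0s2 and Abhd5 windows held no other motif of the set. The window at the lower coordinate of Lipe held a forkhead match (3.65% of all windows) and the other an E-box (7.15%), and neighbouring GC boxes overlap there. The forkhead motif and the E-box were each in 2 of the 8 windows, since 1 window of Mgll held both. The direct repeat (0.381% of all windows), the C/EBP motif (10.8%) and the TATA box (13.6%) were in 0 of the 8 windows. The cAMP response element (1.79%) was in 1 of them, that of Pnpla3. A match is only a run of letters, and these windows hold no measurement of binding.

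For every compound, array 2 differed widely from array 1 and from the controls. Between the 2 arrays of a compound 2263 to 3669 probe sets differed by over 1 log2 unit, against 50 between the controls. The fat cell markers chosen for this work (10 genes, among them Adipoq, Fabp4 and Plin1) averaged 13.72 and 13.76 (log2) in the controls, 13.73 to 14.19 in the first arrays of the compounds and 10.71 to 11.31 in the second. Leptin (Lep) was the 1 fat cell marker under the median of the negative control probe sets on all 12 arrays. The preadipocyte and fibroblast markers (9 genes) averaged 13.07 in both controls, 12.58 to 13.17 in the first arrays and 13.52 to 13.86 in the second. Among these, Cd34 lay under the negative control median on all 12 arrays. Of the macrophage markers 7 of 8, of the endothelial markers 5 of 5 and of the muscle markers 4 of 5 lay under that median on all 12 arrays. The medians themselves were 6.09 to 6.28 in controls and first arrays and 6.48 to 6.66 in the second, in a separately normalized table of the same arrays. The comparisons of compounds with control below are therefore given with and without the second arrays. In bulk RNA, fewer fat cells and less of a transcript per fat cell cannot be told apart.

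The triglyceride lipase Pnpla2 had a control signal of 16.28 and 16.23 (log2, as all levels below). In the first arrays it was 16.20 with SQ, 15.85 with mono-SQ, 15.99 with di-SQ, 16.06 with tri-SQ and 15.46 with tetra-SQ. In the second arrays it was 11.94, 12.12, 12.29, 12.37 and 11.60, in the same order. The first arrays thus lay just under the controls, and the second arrays lay far below both with no overlap. The second arrays were lower than the first by 3.85 ± 0.15 (log2 ± SE, 5 compounds, limma adjusted p = 7.47e-08), a 14.4-fold difference, and lower in 5 of 5 compounds. Same-numbered arrays of different compounds deviated together (correlation across probe sets 0.48 to 0.719), so the 5 compounds may not be independent replicates. The test was run because earlier results of these data had shown the second arrays of the compounds to stand apart. All 8 genes passed this test as lower, where 21.2% of all probe sets passed, 9.96% as lower and 11.2% as higher (31% at an unadjusted p under 0.05).

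Lipe, the diglyceride lipase, gave 15.80 and 15.79 in the controls. Its first arrays read 15.67 with SQ, 15.67 with mono-SQ, 15.78 with di-SQ, 15.97 with tri-SQ and 15.47 with tetra-SQ, on both sides of the control values. Its second arrays read 11.14, 11.09, 11.49, 11.66 and 11.16. The difference was -4.4 ± 0.14 (adjusted p = 2.03e-08, 21.2-fold), and it ran from -4.58 to -4.29 over the 5 compounds. The monoglyceride lipase Mgll, by contrast, lay under the negative control median on all 12 arrays, at 5.57 and 5.78 in controls, 5.46 to 6.15 in first arrays and 4.20 to 5.40 in second arrays. Its difference of -0.93 ± 0.24 (adjusted p = 0.0171) cannot be told from background, and no fold is given for it.

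Abhd5, which activates Pnpla2, differed least of the 8 genes. It read 12.35 and 12.12 in controls, 12.30, 12.29, 11.87, 11.86 and 11.99 in the first arrays of SQ, mono-, di-, tri- and tetra-SQ, and 11.87, 11.27, 11.77, 11.05 and 11.52 in their second arrays. The first and second arrays overlapped, since the second SQ array lay above the first tri-SQ array. The difference was -0.57 ± 0.16 (adjusted p = 0.0323, 1.48-fold), and it no longer passed without the arrays of mono-SQ (adjusted p = 0.136), of tri-SQ (0.0836) or of tetra-SQ (0.0783). The fall of Mgll no longer passed without mono-SQ (0.0508), di-SQ (0.0689) or tetra-SQ (0.0622).

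G0s2, the Pnpla2 inhibitor, lay above both controls in all 5 first arrays and below them in all 5 second arrays, unlike the other 7 genes. It read 9.65 in both controls. The first arrays were higher, at 9.96 with SQ, 10.80 with mono-SQ, 10.57 with di-SQ, 10.84 with tri-SQ and 10.88 with tetra-SQ. The second arrays were lower, at 6.38, 6.58, 6.91, 6.72 and 6.13, where the tetra-SQ array lay under its negative control median. Neither set overlapped the controls, and the second minus first difference was -4.07 ± 0.19 (adjusted p = 2.15e-07, 16.7-fold as measured). In the separately normalized table, with that tetra-SQ array raised to its negative control median, it was 14.8-fold.

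Pnpla3 read 7.66 and 7.50 in controls, 6.65, 7.26, 7.22, 6.80 and 7.35 in first arrays and 4.19, 4.49, 5.46, 4.77 and 4.64 in second arrays (SQ, mono-, di-, tri- and tetra-SQ). All 5 second arrays lay under their negative control medians, so the signal there is only a bound. With the bound, the first arrays were at least 1.34-fold higher, and the measured difference was -2.35 ± 0.18 (adjusted p = 7.57e-06). The receptor Adrb3 read 8.49 and 8.04 in controls and 8.08 to 8.39 in first arrays, which lay within the control range. In second arrays it read 6.61 to 7.38, below every other array, with a difference of -1.25 ± 0.17 (adjusted p = 0.00038, 2.38-fold as measured). No Adrb3 signal lay under its negative control median, but the lowest was at percentile 50.1 of the negative control probe sets. In the separately normalized table the second arrays averaged 7 for Adrb3, against negative control medians of 6.48 to 6.66. Adrb3 was thus near background there, and its fold is not a firm size. Pde3b, which ends the cAMP signal, read 13.72 and 13.68 in controls and 13.47, 13.50, 13.61, 14.14 and 13.41 in first arrays. In second arrays it fell to 8.28, 8.55, 8.51, 8.10 and 8.58. Its difference of -5.22 ± 0.19 (adjusted p = 4.64e-08, 37.3-fold as measured) was the largest of the 8 genes and the 8th lowest of all 22206 probe sets, with Lipe 30th, G0s2 40th and Pnpla2 49th. No Pde3b signal lay under its negative control median. Its lowest was at percentile 71.7 of the negative control probe sets, so the low end of its fold is less firm.

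**Figure D1:**
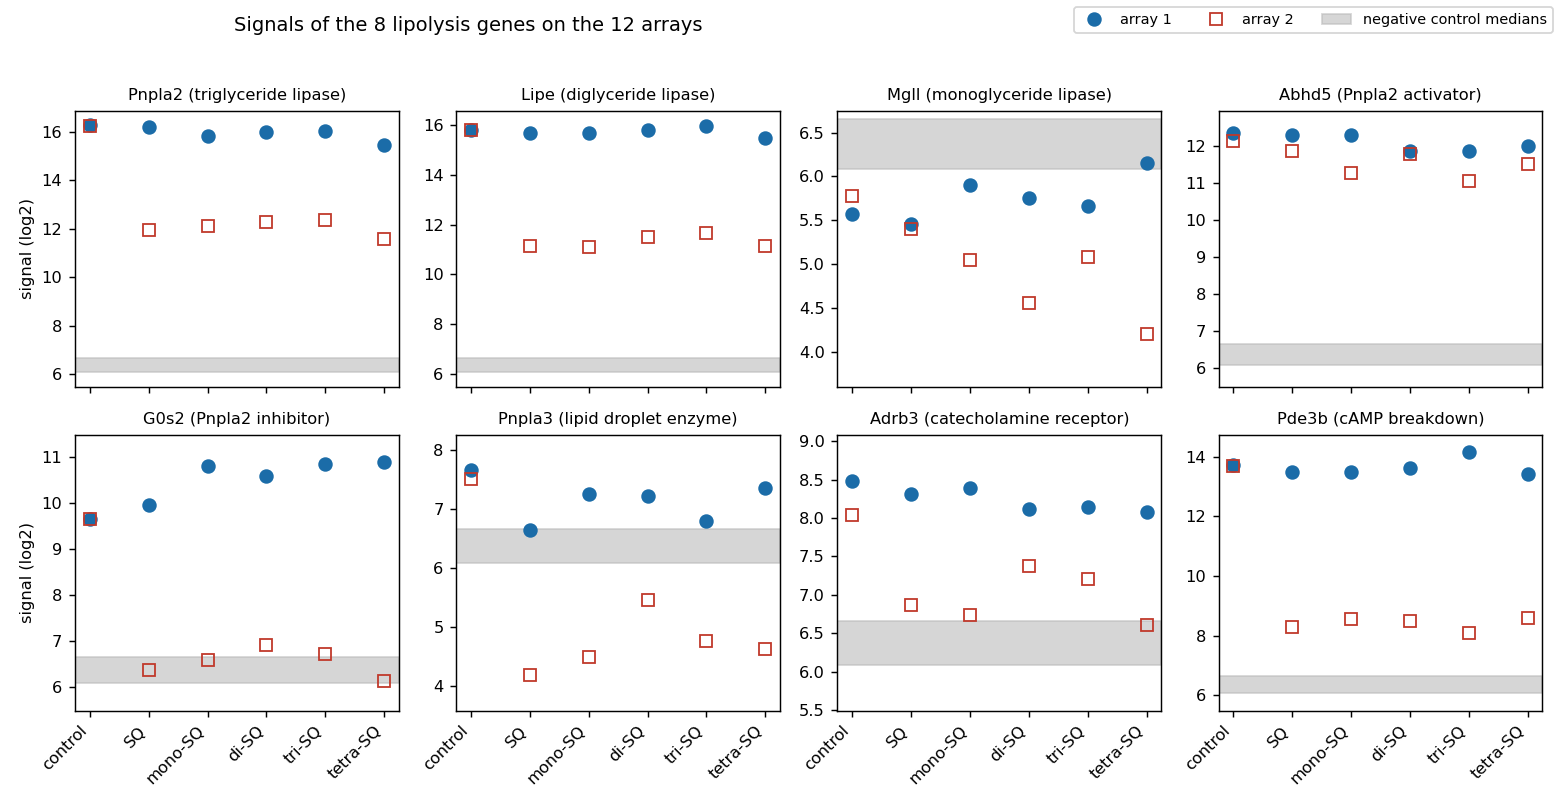
Signal (log2, vertical axis) of the 8 genes in the 6 groups (horizontal axis), 1 point per array, filled for array 1 and open for array 2. The grey band spans the negative control medians of the 12 arrays (6.09 to 6.66, from the separately normalized table), and the open points of the compounds lie low for Pnpla2, Lipe, G0s2, Pnpla3, Adrb3 and Pde3b.

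Between the 2 control arrays the 8 genes differed by -0.45 (Adrb3) to 0.21 (Mgll), and by 0.05 or less in size for Pnpla2, Lipe, G0s2 and Pde3b. Over the 8 genes the median second minus first difference was -3.1 in the compounds, against -0.02 over all probe sets. For 7 of the 8 genes, all except Abhd5, every second array lay below every first array, against 8.86% of all probe sets. All 8, Mgll within background, lay below both controls in every second array, against 19.5% of all probe sets. The fat cell markers moved with this result: 9 of 10 passed as lower in the second arrays, with Cfd at -5.02 ± 0.27, Slc2a4 at -4.98 ± 0.15 and Plin1 at -4.68 ± 0.14. Slc2a4 read 6.67 to 7.35 in second arrays, near the negative control medians, so its size is not firm. Of the preadipocyte and fibroblast markers, 6 of 9 passed as higher, with Dlk1 at 1.82 ± 0.18, Sox9 at 1.28 ± 0.16 and Pdgfrb at 1.24 ± 0.18. Ly6a (-0.21 ± 0.27) and Cd34 (-0.31 ± 0.27) lay below 0 and did not pass. The part of either marker set in the lipolysis genes' difference was not tested. Tested against the shift between the controls, the compounds' shift passed as lower for 5 of the 8 genes (Pnpla2, Lipe, G0s2, Pnpla3 and Pde3b), where 2.18% of all probe sets passed, 1.43% as lower and 0.748% as higher. In that test 7 of 10 fat cell markers passed as lower, and 0 of 9 preadipocyte and fibroblast markers passed in either direction.

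**Figure D2:**
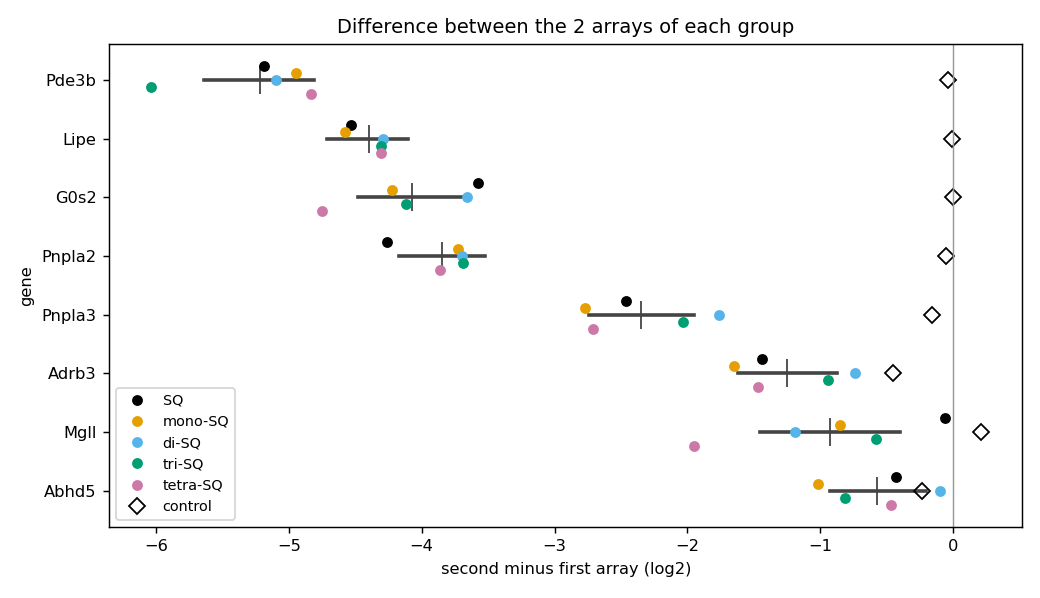
Second minus first array (log2, horizontal axis) for each gene (vertical axis), with a filled point for each compound, an open diamond for the control pair, and the limma estimate over 5 compounds with its 95% interval. Pde3b, Lipe, G0s2 and Pnpla2 lie between -6.04 and -3.58 in all compounds, while the control pair lies at -0.05 to 0.

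Each compound was compared with control over both of its arrays to ask whether it shifts the lipolysis genes. All 40 differences (8 genes, 5 compounds) were below 0, where the median over all probe sets was -0.03 to 0.01. The 40 are not independent, since they share the 2 controls and each compound mean holds 1 second array. Those of Mgll lay within background. Of the 40, 0 passed limma (smallest adjusted p = 0.727), as 0% of all probe sets passed in each comparison. The share with an unadjusted p under 0.05 was 5.03% of all probe sets for SQ, 5.9% for mono-SQ, 5.57% for di-SQ, 6.68% for tri-SQ and 8.49% for tetra-SQ, and 0 of the 40 differences had one. Pnpla2 differed from control by -2.73 (tetra-SQ) to -2.04 (tri-SQ), each ± 2.01 (SE). Lipe differed by -2.48 to -1.98 (± 2.30), Pde3b by -2.82 to -2.58 (± 2.73), Pnpla3 by -2.16 to -1.24 (± 1.25) and G0s2 by -1.48 to -0.87 (± 2.13). Abhd5 (-0.78 to -0.15, ± 0.39), Adrb3 (-0.92 to -0.52, ± 0.70) and Mgll (-0.52 to -0.2, ± 0.61) differed less. Array by array, each compound array was also set against the control of the same number, as a description. Pnpla2 was -0.82 to -0.08 from control in array 1 and -4.63 to -3.86 in array 2, and Lipe -0.33 to 0.17 and -4.7 to -4.13. Pde3b was -0.31 to 0.42 and -5.58 to -5.1, and G0s2 0.31 to 1.23 and -3.52 to -2.74. The group errors hold the gap between first and second arrays, so a group mean lies where neither of its arrays does.

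Over the 5 compounds together, Pnpla2 differed from control by -2.27 (95% interval -5.78 to 1.25), Lipe by -2.28 (-6.3 to 1.73), Pde3b by -2.68 (-7.45 to 2.08), Pnpla3 by -1.7 (-3.88 to 0.49) and G0s2 by -1.07 (-4.8 to 2.65). None of the 8 passed (adjusted p from 0.65 to 0.851), and 0% of all probe sets did, with 8.9% at an unadjusted p under 0.05. Both arrays of a compound lay below both controls for 5 of 8 genes with SQ (22.5% of all probe sets), 4 with mono-SQ (24.4%), 5 with di-SQ (24.1%), 3 with tri-SQ (20%) and 5 with tetra-SQ (27.7%). Pnpla2 and Pnpla3 were among them with every compound. The 5 with SQ include Mgll, which lay under the negative control median on all 12 arrays. Both arrays lay above both controls for 0 of the 8 genes with any compound, against 19.9% of all probe sets with SQ, 22.6% with mono-SQ, 21.3% with di-SQ, 21.7% with tri-SQ and 23.4% with tetra-SQ. That restates that all 8 genes lay below both controls in every second array, and is no further result. The authors' deposited table gave Pnpla2 signed folds of -6.61 to -4.11 over the 5 comparisons, with no false discovery rate under 0.7276. For Pde3b the authors' deposited table gave -7.12 to -5.99, with none under 0.7882.

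Without the second arrays, 0 of the 8 genes passed against control, and the widest difference was that of G0s2. Over the 5 first arrays against the 2 controls, G0s2 was higher by 0.96 ± 0.25 (95% interval 0.42 to 1.5, higher in 5 of 5 arrays), which did not pass (limma adjusted p = 0.203). No probe set passed in this comparison (0% of all, 12.7% at an unadjusted p under 0.05). G0s2 ranked among the highest 0.666% of all probe sets. Without the first SQ array, its difference was 1.12 ± 0.16 (0.76 to 1.48) and passed (limma adjusted p = 0.021). In that fit 1.93% of all probe sets passed, 1.65% as higher. G0s2 lay nearest to control in that array, so leaving it out widens the difference by construction. Of the fits without 1 compound array, only this one passed for G0s2. Leaving out each of the 7 arrays in turn, its difference ranged from 0.89 to 1.12. With all 5 first arrays, Pnpla3 differed by -0.52 ± 0.22 (-1.01 to -0.04, adjusted p = 0.356) and Pnpla2 by -0.34 ± 0.21 (-0.8 to 0.12, adjusted p = 0.526). Both were below the controls in all 5 first arrays, as were 10.7% of all probe sets, while G0s2 was above them in all 5, as were 9.66%. Lipe (-0.08, interval -0.47 to 0.31), Pde3b (-0.07, -0.55 to 0.4), Adrb3 (-0.05, -0.46 to 0.35), Abhd5 (-0.17, -0.6 to 0.25) and Mgll (0.11, -0.34 to 0.56) overlapped the controls. The 5 compounds are pooled here, so the spread includes their differences from each other.

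**Figure D3:**
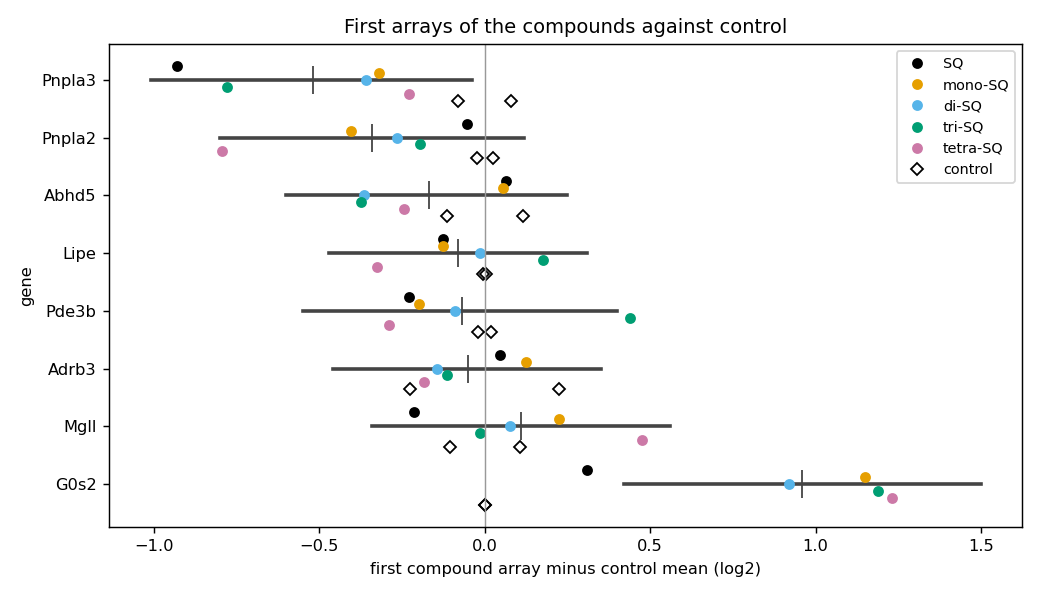
First compound array minus the control mean (log2, horizontal axis) for each gene (vertical axis), with a filled point per compound, open diamonds for the 2 controls drawn just below, and the limma estimate with its 95% interval. The 5 points of G0s2 lie right of 0, with SQ nearest to it, and those of Lipe, Pde3b, Adrb3 and Abhd5 lie on both sides.

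Squalene and its 4 ethylene glycol derivatives were compared at their 1 shared dose and time in 10 pairs. Of the 80 differences (8 genes, 10 pairs), 0 passed with p values adjusted over all probe sets and pairs, as 0% of all such tests passed (3.3% at an unadjusted p under 0.05). The control had the highest group mean for all 8 genes, which restates that every difference from control was below 0. The order of the compounds below it changed from gene to gene. Only 1 of the 80 pairs had arrays that did not overlap (24.5% of all such pairs of probe sets did not), that of Abhd5 in tri-SQ and SQ. For the 7 other genes every second array lay below every first array, so any pair of compounds overlaps by construction. The count therefore does not show how alike the compounds are. The widest gaps were 0.92 for Pnpla3 (di-SQ over SQ, 95% interval -1.9 to 3.74), -0.68 for Pnpla2 (tetra-SQ under tri-SQ, -5.22 to 3.85) and -0.63 for Abhd5 (tri-SQ under SQ, -1.5 to 0.24). With a term for the second arrays, which every compound has once, the same gaps had intervals of 0.34 to 1.5, -1.14 to -0.23 and -1.16 to -0.1. Their adjusted p values were then 0.581, 0.581 and 0.622, and again 0 of the 80 passed. With that term 10 of the 80 had an unadjusted limma p under 0.05, against 7.41% of all such tests. The widest gap of Pde3b among compounds was 0.24 (-0.35 to 0.84 with that term), and that of Lipe -0.5 (-0.91 to -0.09, adjusted p = 0.616).

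Against plain squalene, the 4 derivatives were compared array by array as a description. All 4 were set against the same single SQ array each time, so a direction that they share is not 4 independent results. The share of all probe sets with such a shared direction was not counted. Abhd5 was below SQ with every derivative in both arrays, by -0.44 to -0.01 in the first and -0.82 to -0.1 in the second. Pnpla3 was above SQ with every derivative in both arrays, by 0.15 to 0.7 in the first and 0.3 to 1.27 in the second, where its signal was under the negative control medians. In the first arrays G0s2 was above SQ by 0.92 with tetra-SQ, 0.88 with tri-SQ, 0.84 with mono-SQ and 0.61 with di-SQ. In the second arrays, where its signal was near the negative controls, these differences were -0.25, 0.34, 0.2 and 0.53. Over both arrays the widest G0s2 gap, tri-SQ over SQ, was 0.61 (-4.2 to 5.42, and 0.01 to 1.21 with the term for second arrays, adjusted p = 0.667). For Pnpla2, mono-, di- and tri-SQ were below SQ in the first arrays (-0.35, -0.21 and -0.14) and above it in the second (0.18, 0.35 and 0.43). Tetra-SQ was below SQ in both (-0.74 and -0.34).

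Profiles over the 12 arrays were set relative to each gene's control mean, and genes were compared by these as a description. Pnpla2 and Lipe lay closest among the 8, with a root mean square difference of 0.31 log2 units, and Pde3b lay 0.58 from Lipe. Abhd5, Mgll and Adrb3 were 0.46 to 0.51 from each other and 1.88 to 2.44 from Pnpla2 and Lipe. Outside the set, the profile nearest to Lipe was that of the glycerol-3-phosphate dehydrogenase Gpd1 (0.15), followed by Tusc5 (0.17) and Reep6 (0.27). Gpd1 (0.21), the glycerol channel Aqp7 (0.26) and Tusc5 (0.28) were nearest to Pnpla2. The glucose transporter Slc2a4 (0.27), Cyp2ab1 (0.29) and Syn2 (0.33) were nearest to Pde3b, and Apoc1 (0.23), Cmbl (0.33) and the fatty acid receptor Ffar2 (0.33) to G0s2. For Pnpla3 they were Bpifb2 (0.34), the acetyl-CoA synthetase Acss2 (0.36) and Serpina3n (0.36). For Abhd5 they were Dnajc11 (0.15), Ddx23 (0.16) and Dynll2 (0.17), for Adrb3 Hadh (0.19), Ppp2r5a (0.19) and Tmem245 (0.2), and for Mgll Sctr, Gpd1l and Rras2 (0.27 each). Mgll lay under the negative control median on all 12 arrays and Pnpla3 on the 5 second arrays, so their distances there describe background signal.

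Other genes of the pathway were counted in the same test of second against first arrays (limma adjusted p under 0.05, median of all probe sets -0.02). Among 13 genes of the catecholamine and cAMP arm, 5 were lower and 2 higher (median -0.18). The anchoring protein Akap1 (-1.39 ± 0.14), the catalytic kinase subunit Prkaca (-1.02 ± 0.15) and the regulatory kinase subunit Prkar2b (-0.92 ± 0.18) moved most. Of 12 receptors and G proteins that restrain lipolysis, 4 were lower and 2 higher (median -0.08). The lower ones included the ketone body and niacin receptor Hcar2 (-4.23 ± 0.18), the lactate receptor Hcar1 (-4.21 ± 0.22) and the short-chain fatty acid receptor Ffar2 (-3.59 ± 0.21 as measured, with all 5 second arrays under the negative control median, where a signal is only a bound). In second arrays Hcar2 (6.56 to 7.72) and Hcar1 (6.71 to 7.78) were near the negative control medians, so their sizes are not firm. Of 12 genes of the insulin arm, 5 were lower and 1 higher (median -0.28), with the kinase Akt2 at -1.79 ± 0.18, the adaptor Irs2 at -1.42 ± 0.18 and the insulin receptor Insr at -1.16 ± 0.14.

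The other phosphodiesterases were mixed in direction. Of 9 measured, 3 were higher and 1 lower (median 0), with Pde4b at 1.71 ± 0.14, Pde4a at 1.04 ± 0.17 and Pde2a at -0.66 ± 0.17. Pde4a read 6.01 to 6.67 in first arrays, near the negative control medians. In the natriuretic peptide arm, the cGMP-dependent kinase Prkg2 was higher (1.81 ± 0.14) and the clearance receptor Npr3 lower (-1.49 ± 0.14) among 6 genes (median -0.01), and Npr2 stood at 0.3 ± 0.15. Npr3 read 6.54 to 7.03 in second arrays, near the negative control medians. Of 11 genes listed for the droplet, 8 were lower and 1 higher (median -1.07). The coat proteins Plin1 (-4.68 ± 0.14) and Plin4 (-3.44 ± 0.14) and the droplet fusion protein Cidec (-3.8 ± 0.17) were lowest. The list also held the fatty acid carrier Fabp4 (-2.54 ± 0.15) and the caveola genes Cav1 (-1.07 ± 0.14) and Cavin1 (-0.88 ± 0.14), all among the lower. The 1 higher was Plin3 (0.84 ± 0.16).

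Other hydrolases were mixed, with 4 of 11 lower and 1 higher (median -0.46). The carboxylesterases Ces1f (-4.8 ± 0.14) and Ces1d (-2.13 ± 0.23) were lower, and since they belong to a cluster of near-identical genes, their signals may be shared. Ces1d read 6.17 to 7.17 in second arrays, near the negative control medians. The cholesteryl ester hydrolase Nceh1 was higher (2.41 ± 0.14). Of 4 other patatin-like genes, 1 was higher and 0 lower (median 0.2), with Pnpla7 at 1.08 ± 0.16, Pnpla6 at 0.32 ± 0.16 and Pnpla1, under the negative control median on all 12 arrays, at -0.13 ± 0.18. Among 11 genes that release or reuse the products of lipolysis, 8 were lower and 0 higher (median -2.63), led by Gpd1 (-4.24 ± 0.14), the triglyceride synthase Dgat2 (-3.87 ± 0.16) and Aqp7 (-3.86 ± 0.14). In the first arrays against control, 0 genes of any of these lists passed, with list medians of -0.18 to 0.05 (median of all probe sets -0.01). Plin1, Fabp4 and Lpl are also fat cell markers above.

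**Figure D4:**
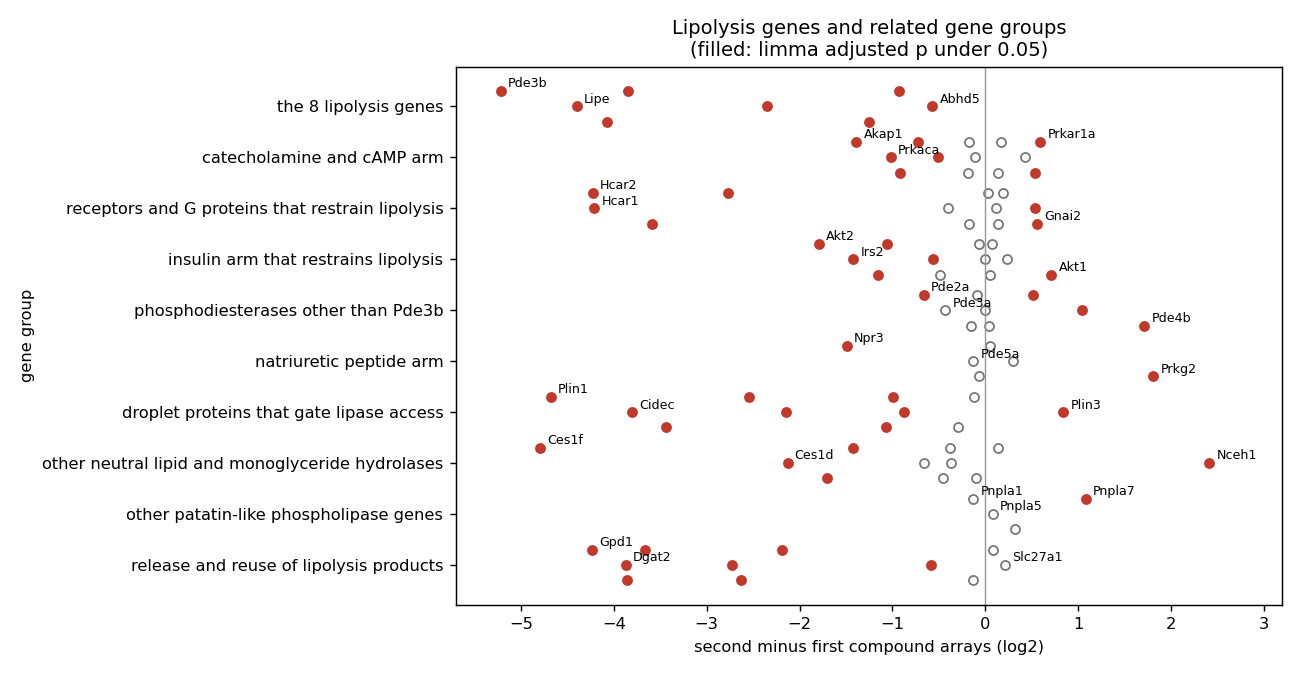
Second minus first compound arrays (log2, horizontal axis) for the 8 lipolysis genes and related gene groups (vertical axis), 1 point per gene, filled where limma's adjusted p was under 0.05. Points spread vertically within a group only for legibility, and the furthest genes are named, from Ces1f at -4.8 to Nceh1 at 2.41 outside the 8 genes.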

How the data were processed

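Total RNA was hybridised to 12 Clariom S mouse arrays. Per the submitters' own design notes, the authors ran the SST-RMA algorithm of TAC software version 4.0.1, and they deposited log2 signals with 2 decimals and a column of gene symbols, per the file headers. They also deposited a signed fold change, a p-value and its false discovery rate for each compound against control, and the test behind these is not given in the sources used here. A separately normalized deposited table of log2 values of the same arrays, matched by sample, holds 5222 negative control probe sets, whose median per array served as the background.

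The deposited log2 signals of 22206 probe sets (21367 with 1 gene symbol, 836 with several, 3 with none) were used without further scaling or filter. limma 3.58.1 in R 4.3.3 was fitted over all probe sets with two-sided moderated tests, Benjamini-Hochberg adjustment and a threshold of 0.05. The 6-group fit used 12 arrays (6 residual degrees of freedom). Second against first arrays used the 10 arrays of the 5 compounds with compound as a term (4 residual degrees of freedom), and first arrays against control used 7 arrays (5). Fits were tested on simulated data with the spread of the first compound arrays. For the 6-group fit these held no gap between first and second arrays. They do not show which differences that fit could find here. The number of arrays limits the precision. The 8 genes, all lists and the test of second against first arrays were chosen with earlier results of these data known. From each list the 3 genes that moved most in the second arrays were named, and the 3 nearest profiles per gene by root mean square difference. Of the listed genes, Pde4d, Pnpla8 and Acsl3 share a probe set with another gene and were not used, Cavin1 was found under an older symbol, and 1 listed gene is not reported here. RefSeq sequences and coordinates are of GRCm38.p6, and the array annotation is of mm10.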

Additional observations from a re-analysis of the deposited data

Results flagged for a closer look

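The difference between the second and the first array was larger in the compounds than in the controls for 5 of the 8 lipolysis genes, in a test of that difference itself (limma, an interaction term over all 12 arrays, adjusted over all probe sets, of which 2.18% passed and 1.43% passed as lower). The compounds' shift exceeded that of the controls by -5.18 ± 0.46 for Pde3b (adjusted p = 0.000359), by -4.39 ± 0.33 for Lipe (adjusted p = 0.000157) and by -4.07 ± 0.45 for G0s2 (adjusted p = 0.00134). It was -3.8 ± 0.36 for Pnpla2 (adjusted p = 0.000565) and -2.19 ± 0.44 for Pnpla3 (adjusted p = 0.032), where all 5 second compound arrays of Pnpla3 lay under their negative control medians, so that its shift is not a measured size. The Pnpla3 call was lost without mono-SQ (0.0735) or tetra-SQ (0.0761). All 5 compounds showed the direction for each of these genes, though they may not be 5 independent results. Mgll (-1.14, adjusted p = 0.542), Adrb3 (-0.8, 0.556) and Abhd5 (-0.34, 0.951) did not pass. The controls' own shift rests on a single pair of arrays. Groups of 2 arrays are too small to look for a stray array within a group.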

How the results depend on the processing

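The 8 genes kept their direction and their call in the second arrays with the other deposited table, quantile normalization, a filter on dim probe sets and another variance model (trend and robust); the filter removed Mgll. Leaving out each compound moved the second-against-first calls from 4697 to between 3606 and 4549 probe sets, and those of the shift against control from 484 to between 255 and 584, with 833 under the filter and 793 under the other variance model (both chosen after seeing the data). First arrays against control gave 0 to 429 calls when each array was left out. With a term for the second compound arrays, these differences from control turned positive and did not pass: G0s2 0.55 (SQ), 1.07 (mono-SQ), 1.12 (di-SQ), 1.16 (tri-SQ), 0.89 (tetra-SQ) and 0.96 (all 5), Mgll 0.22 (SQ), 0.26 (mono-SQ), 0.16 (tri-SQ) and 0.11 (all 5), Abhd5 0.13 (SQ), Lipe 0.04 (di-SQ) and 0.22 (tri-SQ), Adrb3 0.11 (di-SQ) and 0.04 (tri-SQ), and Pde3b 0.03 (tri-SQ). That term takes up the shift shared by the second arrays by construction. With it, the 95% intervals of G0s2 lay above 0 for mono-, di-, tri- (0.54 to 1.79) and tetra-SQ, but not SQ (-0.07 to 1.18). Those of Pnpla2 with tetra-SQ (-1.27 to -0.33) and of Pnpla3 with SQ (-1.59 to -0.38) and tri-SQ (-1.23 to -0.02) lay below 0. None of these passed, and the second arrays of Pnpla3 lay under the negative control medians. Leaving out 1 array, the difference from control ranged for G0s2 from -3.27 to 0.31 (SQ), -3.07 to 1.15 (mono-SQ), -2.74 to 0.92 (di-SQ), -2.93 to 1.19 (tri-SQ) and -3.52 to 1.23 (tetra-SQ). For Mgll it was -0.62 to 0.23 (mono-SQ), -1.11 to 0.08 (di-SQ) and -1.47 to 0.48 (tetra-SQ), for Abhd5 -0.37 to 0.07 (SQ) and -0.96 to 0.05 (mono-SQ), and for Adrb3 -1.4 to 0.04 (SQ) and -1.53 to 0.12 (mono-SQ). Lipe (-4.13 to 0.18) and Pde3b (-5.6 to 0.44) also crossed 0 in tri-SQ, and Adrb3 in first arrays against control (-0.28 to 0.17). Between compounds, the widest gaps ranged from -2.61 to 1.25 (Pnpla2), -2.66 to 1.65 (Lipe), -0.91 to 0.28 (Mgll), -1.45 to 2.67 (G0s2), -0.31 to 2.15 (Pnpla3), -1.14 to 0.33 (Adrb3) and -2.78 to 3.27 (Pde3b). A lone array was then assumed to vary like the other groups.

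Same-numbered arrays of different compounds deviated together (correlation across probe sets 0.48 to 0.719) and those of compound and control did not (-0.001 to 0.002). The main fits therefore did not take the numbers as pairs with control. With the replicate number as a block, 0 probe sets passed in any comparison with control or between compounds, and Pnpla2 differed from control by -2.27 over the 5 compounds (limma adjusted p = 0.181).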
